A study of Mus musculus with 12 samples.

Results

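B3galt5 and 9 other enzymes that build the sugar chains of the gut surface were followed through RNA sequencing of mouse small intestine. The members were chosen by symbol as galactosyl-, fucosyl-, GalNAc- and sialyltransferases: B3galt5, Fut2, B4galnt2, B4galnt1, B3gnt3, Gcnt3, Gcnt1, St3gal4, St6galnac1 and C1galt1. All 10 were present among 16942 genes, and all 10 were among the 12329 that passed the filter on low counts. The choice was made with results of these data known, so member values are descriptions and no p-value is given for them.

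The 12 libraries were made from total RNA of ICR mice, an outbred strain, and formed 4 groups of 3. AOS0 mice had no busulfan and AOS at 0, and AOS10 mice had no busulfan and AOS at 10. B+A0 mice had busulfan with AOS at 0, and B+A10 mice had busulfan with AOS at 10. Busulfan, an alkylating agent, damages DNA and is used to deplete blood-forming cells. The labels give neither the full name, unit or route of AOS, nor the dose and time of busulfan, nor the age of the animals or the part of the small intestine sampled. Nor do they state that libraries of a group came from different animals, so every p-value here measures the spread between these libraries, which may be technical.

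Library totals ranged from 13560232 to 16818245 counts. Enterocyte markers were abundant, with a summed level of 12034 to 23984 CPM (counts scaled to library size) per library, and the 10 goblet cell markers summed to 11811 to 20904 CPM. Smooth muscle markers summed to 0.0614 to 3.70 CPM, and pancreas and stomach markers to at most 0.401 CPM. Levels below are CPM after scaling by trimmed mean of M-values (TMM), unless given as FPKM, a level scaled by gene length, which allows genes to be compared with each other. In bulk tissue, fewer cells of a type and less RNA per cell cannot be told apart.

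Glycosyltransferases sit in the Golgi membrane and add 1 sugar at a time to proteins and lipids. On mucins, C1galt1 lays down the first galactose of core 1, Gcnt1 and Gcnt3 branch it, B3gnt3 lengthens it, and B3galt5 adds galactose to build the so-called type 1 chain. Fut2, B4galnt2, St3gal4 and St6galnac1 then add fucose, GalNAc or sialic acid, which end or decorate the chains. In the gut these end sugars form blood-group-like antigens that microbes bind and feed on, and Fut2 in particular is known to be induced in the epithelium by interleukin-22 and microbial signals. B4galnt1 belongs to another branch and makes gangliosides, which are lipids.

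Because the results turn on B3galt5, the sequences upstream of 2 of its 3 annotated starts are shown, taken from RefSeq GRCm38.p6. The gene spans chromosome 16, 96235801 to 96319859, on the plus strand, and its coding sequence of 308 codons lies in 1 exon. The 250 bases before each of these 2 starts are written 5′ to 3′ on the plus strand, and gene-level counts cannot tell which start was used. The window of start 1 is chr16:96235551-96235800 and that of start 2 is chr16:96273263-96273512. The window of start 3, chr16:96280782-96281031, is not printed because 234 of its 250 bases lie in annotated exon, exons of B3galt5 itself included. No other annotated gene overlaps B3galt5. Capitals mark a match to TTCNNNGAA, the letters bound by STAT factors.
B3galt5 start 1: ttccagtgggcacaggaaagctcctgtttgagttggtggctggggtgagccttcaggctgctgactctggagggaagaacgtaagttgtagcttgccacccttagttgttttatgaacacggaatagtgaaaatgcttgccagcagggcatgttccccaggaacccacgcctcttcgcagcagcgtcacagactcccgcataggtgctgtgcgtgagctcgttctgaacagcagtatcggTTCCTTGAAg
B3galt5 start 2: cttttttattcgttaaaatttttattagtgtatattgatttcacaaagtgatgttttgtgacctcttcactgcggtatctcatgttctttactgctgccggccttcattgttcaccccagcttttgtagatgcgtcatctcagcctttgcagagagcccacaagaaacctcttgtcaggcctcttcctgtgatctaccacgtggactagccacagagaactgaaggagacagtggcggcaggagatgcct
The match, TTCCTTGAA, begins 10 bases before start 1. Such a match was found in 7.02% of 32851 windows of this length. Both strands were also searched for GTTAAT (part of an HNF1 site, in 6.43% of windows), CAATAAA (CDX, 4.2%) and CAAAGTCCA (HNF4, 0.384%). None of these 3 was in any of the 3 B3galt5 windows, and the window of start 3 held no match to TTCNNNGAA either, while the 250 bases before B3gnt3 held 1 match to CAAAGTCCA. A match describes letters and does not show binding.

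B3galt5 was highest in the busulfan group without AOS. In AOS0 it stood at 10.2, 27.5 and 53.8 CPM, and in AOS10 at 36.5, 25.6 and 36.3 CPM. In B+A0 it stood at 145, 85.9 and 285 CPM, and in B+A10 at 27.5, 37.3 and 64.3 CPM. All 3 B+A0 libraries lay above all 9 others, and the other 3 groups overlapped one another. The group means were 30.5 ± 22 in AOS0, 32.8 ± 6.22 in AOS10, 172 ± 102 in B+A0 and 43.1 ± 19.1 in B+A10, all in CPM (SD, n = 3).

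The fitted log2 fold change of B3galt5 was 2.50 (SE 0.53, 5.67-fold) in B+A0 over AOS0 and -2.0 (SE 0.52) in B+A10 over B+A0. These values share the B+A0 libraries, so they are not independent. Without busulfan, AOS10 differed from AOS0 by 0.11 (SE 0.53). B+A10 differed from AOS10 by 0.39 (SE 0.52) and from AOS0 by 0.51 (SE 0.52). The interaction, which is the busulfan difference with AOS minus that without, was -2.11 (SE 0.73). B3galt5 was the 1 member called in B+A0 against AOS0 (edgeR quasi-likelihood test, adjusted p under 0.05), where 3.64% of all tested genes were called. Leaving out B+A0 replicate 3 (log2 fold change 1.94), or replicate 1 (2.09) or replicate 2 (2.44) of AOS0, ended its call. It was also lost when only the 2 groups were fitted (2.51) and in limma without a filter (2.34).

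**Figure D1:**
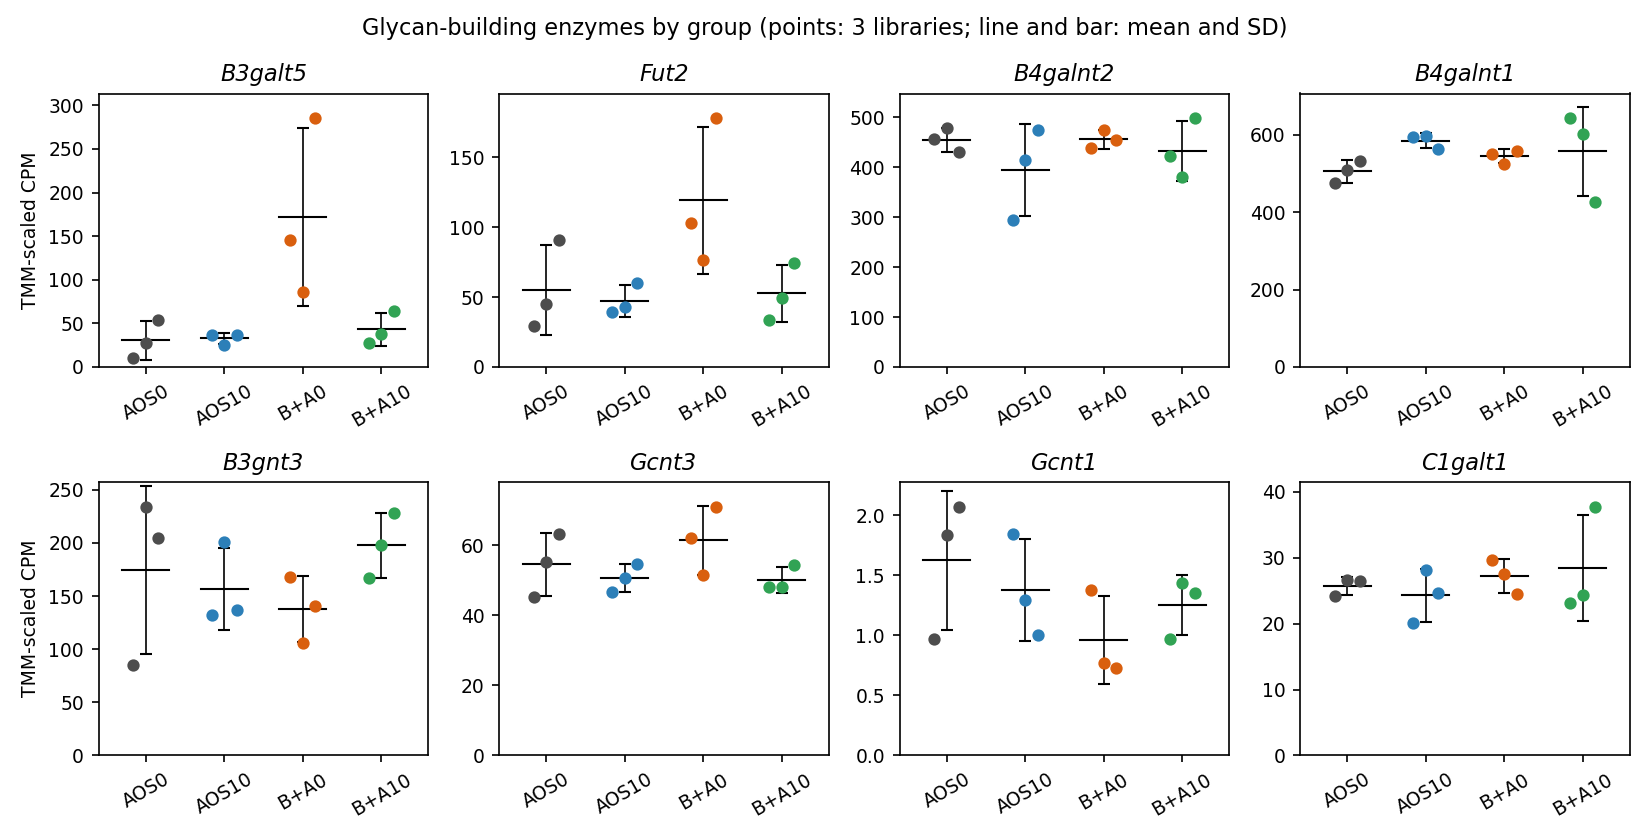
Level of 8 enzymes in TMM-scaled CPM (vertical axes, each from 0) in the 4 groups; points are the 3 libraries of a group, the line is their mean and the bar their SD. B3galt5 in B+A0 spans 85.9 to 285 CPM, above every other library, while B4galnt1 and B4galnt2 lie within a narrow band.

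Fut2, the fucosyltransferase that caps chains with the H antigen of secretions (chromosome 7, 45648591 to 45666394, minus strand, GRCm38.p6), was also highest on average in B+A0, with a smaller difference. Its levels were 29.5, 44.9 and 91.0 CPM in AOS0 and 39.1, 42.6 and 60.1 CPM in AOS10. They were 103, 76.8 and 178 CPM in B+A0 and 33.8, 49.6 and 74.5 CPM in B+A10. B+A0 overlapped AOS0 through AOS0 replicate 3, and lay above all AOS10 and B+A10 libraries. The log2 fold change was 1.12 (SE 0.40) in B+A0 over AOS0, -1.18 (SE 0.40) in B+A10 over B+A0 and -0.22 (SE 0.41) in AOS10 over AOS0. None of these passed the threshold. The interaction was -0.96 (SE 0.57). On the FPKM scale, B3galt5 ranked 7 of 10 members in AOS0 (6.43 ± 4.53) and 5 of 10 in B+A0 (35.4 ± 20.7), where it overlapped Fut2 (40.8 ± 17.4) and Gcnt3 (22.5 ± 3.27; SD, n = 3).

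**Figure D2:**
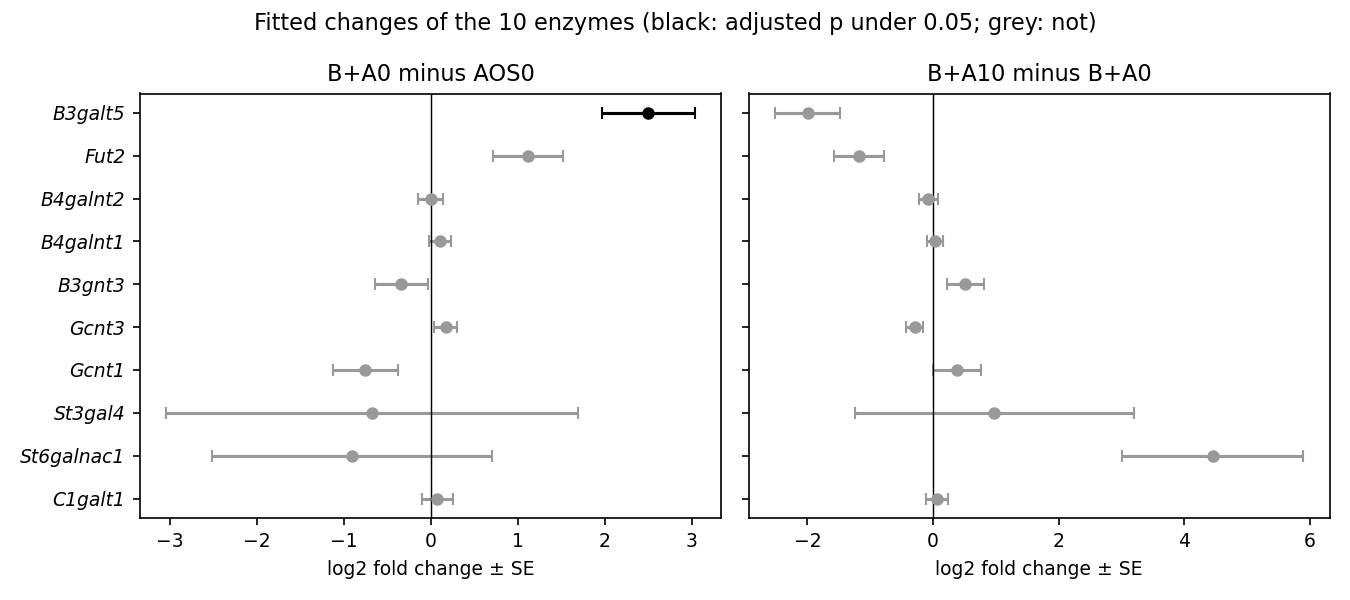
Log2 fold change with its SE (horizontal axes) of the 10 enzymes in B+A0 over AOS0 (left) and B+A10 over B+A0 (right), which share the B+A0 libraries; black marks a call and grey none. B3galt5 stands at 2.50 and -2.0 and Fut2 at 1.12 and -1.18, while St3gal4 and St6galnac1 have the widest errors.

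B3galt5 and Fut2 also varied together from library to library. Across the 12 libraries the Pearson r of their log2 CPM was 0.94 (Spearman rho 0.89), and it was 0.94 after group means were removed. Without B+A0 replicates 1 and 3, the 2 libraries farthest from the median of B3galt5, r was 0.86, and over the 9 libraries outside B+A0 it was 0.84. Gcnt3, the mucin-type branching enzyme, followed Fut2 with r of 0.92 and B3galt5 with r of 0.81. The last value was 0.53 without those same 2 libraries. These correlations share libraries and depth and are given as description.

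**Figure D3:**
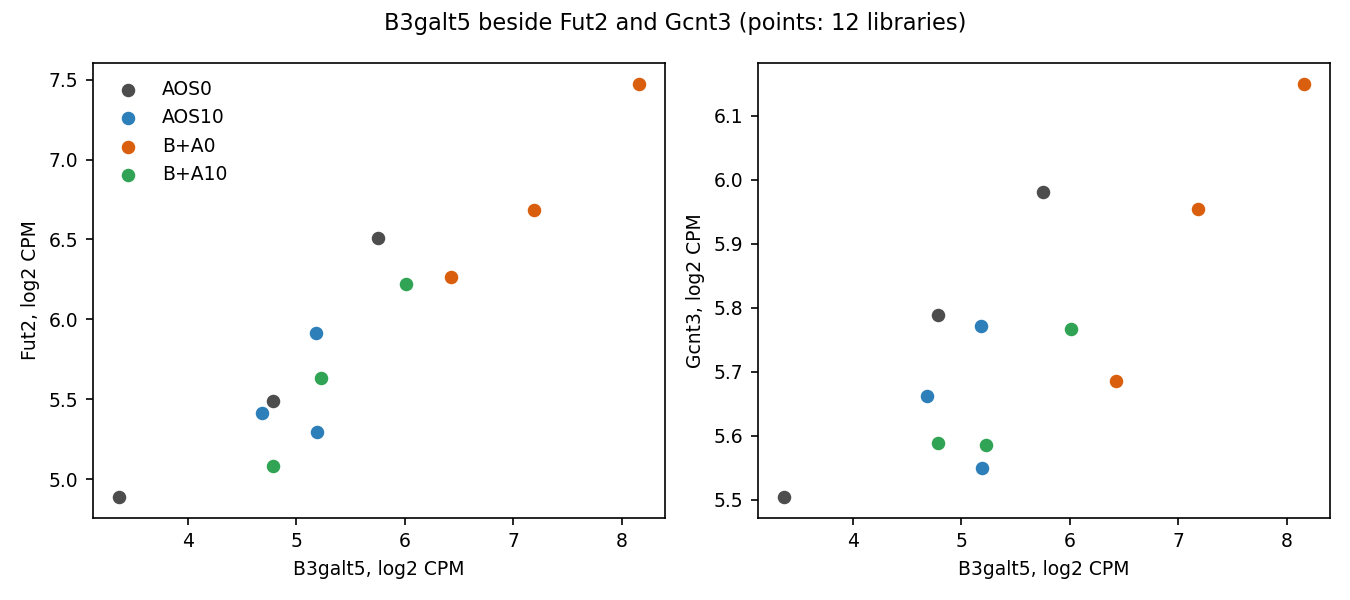
Log2 CPM of B3galt5 (horizontal) against Fut2 (left) and Gcnt3 (right) in the 12 libraries, coloured by group. The 2 B+A0 libraries with most B3galt5 also have the most Fut2, and AOS0 replicate 1 has the least of both.

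Among 11628 candidates averaging 1 CPM or more, the 5 most like B3galt5 over the 12 libraries were Gpx2 (r = 0.94), Alg12 (0.93), Gusb (0.92), Lgmn (0.92) and Tifa (0.92). Gpx2, a glutathione peroxidase of the gut epithelium, averaged 1010 ± 153 CPM in AOS0 and 1588 ± 283 CPM in B+A0. Alg12, which adds mannose to the precursor of N-glycans, averaged 26.2 ± 2.47 and 36.3 ± 2.30 CPM. Tifa, an adaptor in the sensing of bacterial sugar metabolites, averaged 101 ± 27.0 and 168 ± 23.8 CPM. Gusb averaged 35.6 ± 5.71 and 46.7 ± 5.88 CPM, and Lgmn 38.2 ± 8.34 and 52.0 ± 11.6 CPM (SD, n = 3). All 5 were picked by their r with B3galt5 in these same libraries. Their higher means in B+A0 therefore follow from the choice and are no separate result. Gpx2 spanned 843 to 1913 CPM over the 12 libraries, whereas the highest library of B3galt5 was 28.0-fold above its lowest.

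Among the chain-building enzymes, levels differed less between groups. Gcnt3 (chromosome 9, 70031495 to 70039890, minus strand) stood at 45.3, 55.1 and 63.0 CPM in AOS0, 46.7, 50.5 and 54.5 CPM in AOS10, 61.9, 51.4 and 70.9 CPM in B+A0, and 48.0, 47.9 and 54.3 CPM in B+A10. B+A0 overlapped each of the other groups, with a log2 fold change of 0.17 (SE 0.13) over AOS0. C1galt1, which makes core 1 (chromosome 6, 7845224 to 7872042, plus strand), ranged from 20.1 to 37.7 CPM over all libraries, with B+A10 replicate 3 the highest. Its log2 fold change was 0.08 (SE 0.17) in B+A0 over AOS0.

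B3gnt3, the enzyme that extends core 1 (chromosome 8, 71691373 to 71702626, minus strand), spread widely within groups. It stood at 85.2, 234 and 204 CPM in AOS0 and 132, 201 and 137 CPM in AOS10. In B+A0 it stood at 168, 106 and 141 CPM, and in B+A10 at 167, 198 and 228 CPM. AOS0 alone held both the lowest and the highest library, so all groups overlapped it. Its log2 fold change was -0.34 (SE 0.30) in B+A0 over AOS0 and 0.52 (SE 0.30) in B+A10 over B+A0. Gcnt1, the branching enzyme best known from leukocytes (chromosome 19, 17326141 to 17372844, minus strand), was near the limit of detection, at 12 to 30 counts (0.728 to 2.07 CPM) per library. Its log2 fold change in B+A0 over AOS0 was -0.75 (SE 0.37), and the groups overlapped.

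The GalNAc-transferases were the most abundant members per length. B4galnt1 averaged 237 ± 8.10 FPKM in AOS0 and B4galnt2, which makes the Sda antigen, 122 ± 7.19 FPKM (SD, n = 3), and their ranges did not overlap. B4galnt2 ranged from 294 to 498 CPM, and its log2 fold change was 0.00 (SE 0.15) in B+A0 over AOS0. B4galnt1 stood at 474, 508 and 533 CPM in AOS0 and at 594, 597 and 562 CPM in AOS10, so these groups did not overlap. The log2 fold change between them was 0.21 (SE 0.12), and groups failed to overlap in 20.7% of all tested genes in that comparison, where no gene was called. In B+A0 B4galnt1 stood at 550.3, 524 and 558 CPM and in B+A10 at 642, 601 and 426 CPM. B4galnt1 (chromosome 10, 127165156 to 127172340, plus strand) overlaps Slc26a10 on the other strand, and B4galnt2 (chromosome 11, 95863559 to 95914960, minus strand) overlaps the antisense gene Gm11534. Of the other members, C1galt1 overlaps Gm43961 on its own strand and the processed pseudogene Gm43962 on the other. B3gnt3 overlaps the processed pseudogene Gm45756 on the other strand. Whether counting used the strand is not given in the sources used here. These overlaps are of whole gene spans, and whether exons are shared was not checked. Whether reads of such pairs were told apart is therefore not known.

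St3gal4, which puts sialic acid on terminal galactose, had the widest range of any member in CPM. It stood at 0.777, 0.787 and 0.888 CPM in AOS0, at 0.439, 0.477 and 0.606 CPM in B+A0, and at 0.667, 1.69 and 0.675 CPM in B+A10. In AOS10 it stood at 7.86, 8.55 and 291 CPM, which is 128, 132 and 4362 counts against 7 to 27 in each of the other 9 libraries. All 3 AOS10 libraries therefore lay above all others, and AOS10 replicate 3 lay 5.07 log2 units above the next library. That was the widest such gap among the 12329 tested genes.

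The fitted log2 fold change of St3gal4 in AOS10 over AOS0 was 6.96 (SE 1.41) and did not pass the threshold. Without AOS10 replicate 3 it was 3.32 and passed. For B+A10 over AOS10 it was -6.66 (SE 1.36), and without that replicate -3.01, which passed. In both comparisons this was the only 1 of the 6 fits leaving out 1 library in which it passed. The size therefore rests on 1 library, while the 2 other AOS10 libraries still stand above all libraries of the other groups. St3gal4 (chromosome 9, 35046576 to 35116864, minus strand) overlaps the transcript 4930581F22Rik on the opposite strand, so which of the pair gave these reads was not tested.

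St6galnac1, which adds sialic acid to the first GalNAc of mucins (chromosome 11, 116765025 to 116775507, minus strand), also rested on few libraries. It stood at 7.77, 0.0656 and 0.518 CPM in AOS0, at 0.123, 0 and 2.87 CPM in AOS10 and at 3.95, 0.417 and 0.243 CPM in B+A0. In B+A10 it stood at 84.8, 14.0 and 1.66 CPM. B+A10 replicates 1 and 2 were the highest of all libraries, and B+A10 replicate 3 overlapped the other groups. The log2 fold change in B+A10 over AOS0 was 3.56 (SE 1.35). Leaving out 1 library moved it from 1.47 (without B+A10 replicate 1) to 6.87 (without AOS0 replicate 1). In B+A0 over AOS0 it was -0.90 (SE 1.61), and it ran from -3.07 (without B+A0 replicate 1) to 2.41 (without AOS0 replicate 1). The 6 smooth muscle genes, none of which passed the filter on low counts, summed to 3.70, 1.25 and 0.368 CPM in B+A10 replicates 1 to 3 and to at most 0.592 CPM in the other groups. Their part in the St6galnac1 values was not tested.

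**Figure D4:**
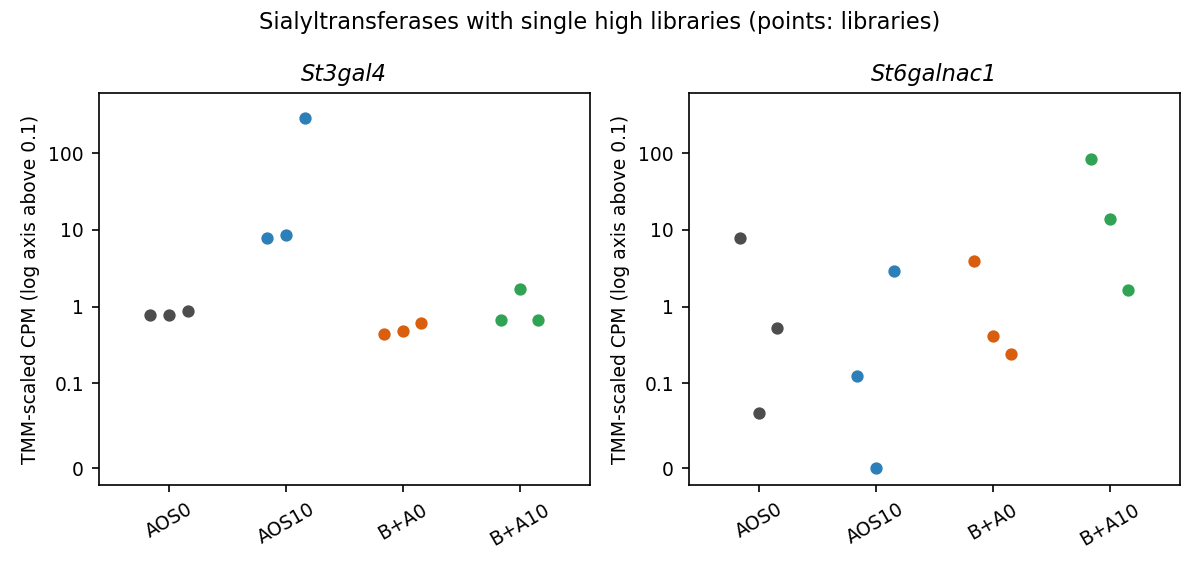
TMM-scaled CPM of St3gal4 (left) and St6galnac1 (right) in each library by group, on an axis that is logarithmic above 0.1. St3gal4 reaches 291 CPM in 1 AOS10 library and 7.86 and 8.55 CPM in the other two, and St6galnac1 reaches 84.8 CPM in 1 B+A10 library.

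Counted over the list, 1 of 10 members was called higher and none lower in B+A0 against AOS0, beside 1.7% and 1.94% of all tested genes. No member was called in the other 5 comparisons. The share of all tested genes called there was 0% for AOS10 over AOS0, for B+A10 over B+A0 and for the interaction, 0.162% for B+A10 over AOS10 and 0.957% for B+A10 over AOS0. Groups did not overlap for 2 members in B+A0 against AOS0 (29% of all tested genes) and 2 in AOS10 against AOS0 (20.7%). The count was 3 in B+A10 against B+A0 (10.2%), 1 in B+A10 against AOS10 (14.9%) and 0 in B+A10 against AOS0 (17.9%). The median log2 fold change of members in B+A0 over AOS0 was 0.04, beside -0.01 over all tested genes. Nothing particular to the list is read from these counts.

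Other genes of glycan building were given by role, and 131 of 160 present were tested. In B+A0 against AOS0, 4 rose and 1 fell (edgeR, adjusted p under 0.05), and their median log2 fold change was -0.02. Galnt2, which starts mucin-type chains, rose from 84.6 ± 2.39 to 108 ± 0.990 CPM, a log2 fold change of 0.35 with an SE of 0.07 (edgeR adjusted p = 0.0239). Nans, which makes sialic acid, rose from 125 ± 8.12 to 161 ± 13.5 CPM (adjusted p = 0.0393, edgeR). Lgals9, a lectin that binds galactose-bearing chains, rose from 1327 ± 39.6 to 1680 ± 128 CPM (adjusted p = 0.0431, edgeR). Mgat2, an enzyme of N-glycan branching, rose from 82.9 ± 3.99 to 102 ± 4.62 CPM (adjusted p = 0.0444, edgeR).

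Ugcg, which makes the glucosylceramide on which gangliosides are built, fell from 54.4 ± 2.69 to 41.8 ± 5.02 CPM (SD over 3 libraries), a log2 fold change of -0.38 with an SE of 0.10 (edgeR adjusted p = 0.0482). In none of these 5 genes did the B+A0 and AOS0 libraries overlap, as in 29% of all tested genes. The 5 were picked by their calls in these same libraries, so this is no separate result. Dropping any of 4 libraries ended all 5 calls: replicates 1 and 3 of AOS0 and replicates 2 and 3 of B+A0. The calls of Lgals9 and Mgat2 were lost whichever of the 6 libraries was left out, and adjusted p over these fits of the 5 genes ran from 0.0179 to 0.209 (edgeR). No call was made among 13 galactosyltransferases, 8 fucosyltransferases, 9 sialyltransferases, 12 other GlcNAc- and GalNAc-transferases, 8 sulfotransferases or 8 mucins. Unadjusted p was under 0.05 for 19 higher and 15 lower of the 131 genes (26.0% in all, against 22.1% of all tested genes). DESeq2 called 13 of them (9.92%, against 8.31% of all tested genes). Both shares were near the background.

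**Figure D5:**
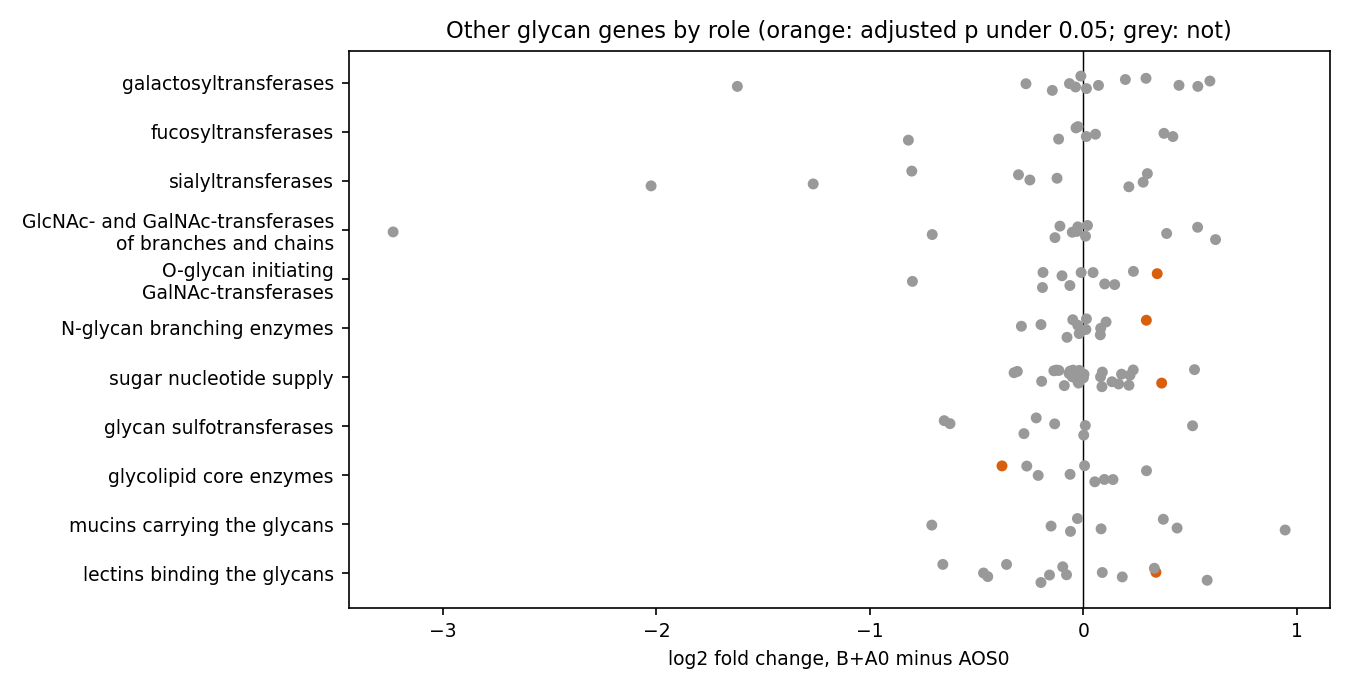
Log2 fold change in B+A0 over AOS0 (horizontal) of each tested glycan gene outside the 10 enzymes, in rows by role; orange marks the 5 called genes and grey the rest. The called genes lie between -0.38 and 0.37, closer to 0 than several uncalled genes.

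In the other 5 comparisons edgeR called none of the 131 genes. At an unadjusted p under 0.05, 7 passed in AOS10 against AOS0 (5.34%, against 6.23% of all tested genes) and 16 in B+A10 against B+A0 (12.2% against 9.81%). In B+A10, 10 passed against AOS10 (7.63%, with 10.2% of all tested genes) and 20 against AOS0 (15.3%, with 15.7%). In the interaction 11 passed (8.4%, with 6.85% of all tested genes). DESeq2 called 2, 0, 1, 5 and 2 of the 131 in the same order, and 63, 82, 138, 463 and 17 of all tested genes. As shares these were 1.53%, 0%, 0.763%, 3.82% and 1.53% of the 131. Of all tested genes they were 0.511%, 0.665%, 1.12%, 3.76% and 0.138%. Each share of the 131 rests on at most 5 genes. The smallest p in the interaction was that of Ugcg, with a log2 value of 0.75 (SE 0.14, adjusted p = 0.499, edgeR). Ugcg averaged 54.4 CPM in AOS0, 40.7 in AOS10, 41.8 in B+A0 and 52.7 in B+A10, so the single treatments were both lower and the combination was near AOS0. Lgals9 had the smallest p in AOS10 against AOS0, at 0.49 (SE 0.08, adjusted p = 0.119, edgeR), followed by Ugcg at -0.42 and Galnt4 at -0.31.

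In B+A10 against B+A0 the smallest p-values were those of Ugcg (0.34), Nans (-0.30) and St6galnac4 (-0.49), and in B+A10 against AOS10 those of Ugcg (0.37), Galnt2 (0.25) and Slc35c1 (0.52), all as log2 fold changes. In B+A10 against AOS0 they were Lgals9 (0.35), B3gnt6 (-3.78) and Galnt2 (0.25). B3gnt6, which makes core 3 of mucin chains, stood at 1.42, 47.3 and 6.44 CPM in AOS0 and at 0.920 to 1.81 CPM in B+A10, so its value leans on AOS0 replicate 2. In the interaction, Lgals9 (-0.48) and Galnt4 (0.34) followed Ugcg. These comparisons share libraries, so a gene that returns in several of them is not an independent result each time.

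Markers of other cells moved in the comparison in which B3galt5 was called. B+A0 had 10 of 14 T and NK cell genes called lower than AOS0 (median log2 fold change -1.78). The 15 genes of this list that were present, tested or not, summed to 200 to 341 CPM in AOS0 and 188 to 248 CPM in AOS10. In the busulfan groups they summed to 49.3 to 125 CPM with AOS at 0 and 123 to 332 CPM with AOS at 10. Dropping replicate 1 or 3 of AOS0, or replicate 3 of B+A0, left 0 calls, and dropping replicate 2 of B+A0 left 1. All 5 tested mast cell genes were called lower, and 1 to 5 of them were called when a library was left out. The 8 listed mast cell genes, tested or not, summed to 65.8 to 147 CPM in AOS0 and 23.0 to 26.4 CPM in B+A0. None of 12 enterocyte, 10 goblet cell, 8 crypt or 11 proximal genes was called, and 2 of 11 distal genes were called lower. Most of these genes lay below 0: 11 enterocyte (median log2 fold change -0.35), 8 goblet cell (-0.15) and 6 crypt genes (-0.11). So did 9 proximal (-0.49) and all 11 distal genes (-0.42). Enterocyte genes summed to 16238 to 18757 CPM in AOS0 and 12034 to 21788 CPM in B+A0. Among 10 enteroendocrine genes 2 were called lower, with 9 below 0 (median log2 fold change -0.19). Among 7 tested tuft cell genes 1 was called lower, with all 7 below 0 (median log2 fold change -0.91). None of 7 tested Paneth cell genes was called, with all 7 above 0 (median 0.58). No fibroblast, macrophage, B and plasma cell or erythroid gene was called. All 4 tested fibroblast genes (median log2 fold change -1.14) and 3 of 4 macrophage genes (-0.84) lay below 0. The 4 B and plasma cell genes split into 2 above and 2 below (-0.15), and the 1 tested erythroid gene stood at -1.835. Their part in the B3galt5 result was not tested.

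Genes of the defence that interleukin-22 and microbes induce were also set beside B3galt5 and Fut2. In B+A0 against AOS0, 1 of 12 tested was called, with 7 above 0 and 5 below (median log2 fold change 0.19). None was called in B+A10 against B+A0, with 3 above 0 and 9 below (median -0.77). Il22 itself was read only in AOS0 replicate 3. Duox2, an oxidase of the gut surface, rose from 386 ± 71.8 to 584 ± 61.8 CPM (SD over 3 libraries), a log2 fold change of 0.60 with an SE of 0.14 (edgeR adjusted p = 0.0415). Dropping replicate 1 or 2 of AOS0, or replicate 2 or 3 of B+A0, ended its call, and adjusted p reached 0.174 (edgeR). Summed over all 14 listed genes, tested or not, they reached 7158 to 19781 CPM in AOS0 and 6966 to 10348 CPM in AOS10. With busulfan they reached 11276 to 18147 CPM at AOS 0 and 5766 to 11033 CPM at AOS 10. In this sum B+A0 thus lay above AOS10 and B+A10 and overlapped AOS0. Most of the sum came from Reg3b and Reg3g, which averaged 5859 and 5614 CPM in AOS0. Their log2 fold changes in B+A0 over AOS0 were 0.33 (SE 0.34) and 0.09 (SE 0.37), so the sum says little about the other genes. The part of this list in the B3galt5 and Fut2 values was not tested.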

How the data were processed

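Total RNA of 12 small intestine libraries was sequenced and deposited as 1 table of 16942 genes. The submitters' processing notes name mm10 as genome build. The aligner, the counter, the gene models and whether strand was used were not given in the sources used here. The columns headed read count, per the file headers, hold expected counts as deposited, with no scaling to library size; rounding was applied, because between 8.9% and 9.33% of the numbers in a library had decimals (tolerance 1e-06). Their expression columns, also deposited by the authors, were read as FPKM from the values, since the header names no unit: over 5071 genes whose counts exceeded 500 throughout, the ratio of count to value followed library totals within 0.153%.

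Genes were kept by filterByExpr (12329), scaled by TMM (factors 0.969 to 1.05) and tested with edgeR 4.0.16 (R 4.3.3) in 1 quasi-likelihood model of all 12 libraries, with 6 contrasts and Benjamini-Hochberg adjustment over all tested genes at 0.05. SE was taken as log2 fold change divided by the square root of F. Log2 CPM used a prior count of 2. The fits were tested on simulated data. Alternatives were DESeq2 1.42.0, its size factors, 2 other filters, a replicate block, the compared groups alone, leaving out each library, and limma 3.58.1 on log2(FPKM + 1) and log2(FPKM + 0.1).

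The members, the gene lists and the marker lists were chosen with earlier results of these data known. Named genes are the 10 members, up to 4 called genes per other glycan list, the 3 smallest p where a comparison had no call, the 5 genes most like B3galt5, and defining markers. Duox2 was named because it was the 1 gene called of its list. Within groups, chi-square over its degrees of freedom ran from 8.28 to 35.4 for pairs of libraries, so no pair looked like 1 library deposited again. Positions, exons and promoter windows are from GRCm38.p6.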

Additional observations from a re-analysis of the deposited data

How the results depend on the processing

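No called log2 fold change, of B3galt5 or of the 5 other called glycan genes, changed sign under any alternative run. DESeq2 called 1025 of all tested genes in B+A0 against AOS0, 63 in AOS10 against AOS0, 82 in B+A10 against B+A0, 138 in B+A10 against AOS10, 463 in B+A10 against AOS0 and 17 in the interaction, against 449, 0, 0, 20, 118 and 0 by edgeR. Of the other glycan genes, DESeq2 called 13, 2, 0, 1, 5 and 2. Without a filter the counts were 8 in AOS10 against AOS0, 5 in B+A10 against B+A0 and 40 in B+A10 against AOS10 (1 member, St3gal4), with 1 other glycan gene in B+A10 against AOS0.

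With the compared groups alone, B+A0 against AOS0 gave 241 calls, 0 members and 1 other glycan gene, AOS10 against AOS0 gave 62 and 1 other glycan gene, B+A10 against AOS10 gave 0 and B+A10 against AOS0 gave 18. Limma called 2 genes in B+A10 against AOS10 on log2(FPKM + 1) and 7 on log2(FPKM + 0.1). Limma without a filter called 207 in B+A0 against AOS0 (0 members, 1 other glycan gene), 1 in AOS10 against AOS0, 0 in B+A10 against AOS10 and 58 in B+A10 against AOS0. The cause of these shifts was not tested.

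Replicate numbers did not pair the libraries: of 18 same-number pairs, r ran from -0.16 to 0.17, 1 was over 0.1, and 2 libraries correlated best with their own number. With the replicate block, B+A0 against AOS0 had 193 calls, 2 members (B3galt5 and Fut2) and 0 other glycan genes, AOS10 against AOS0 had 15, B+A10 against B+A0 had 4 and B+A10 against AOS10 had 3.

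Leaving out 1 library at a time gave 21 to 1099 calls in B+A0 against AOS0 (lowest without B+A0 replicate 3, highest without B+A0 replicate 1), with 0 to 1 members and 0 to 10 other glycan genes. AOS10 against AOS0 gave 0 to 13, with 0 to 1 of each. B+A10 against B+A0 gave 0 to 51, with 0 members and 0 to 1 other glycan genes. B+A10 against AOS10 gave 0 to 61, with 0 to 1 members and 0 other glycan genes. B+A10 against AOS0 gave 12 to 763 (highest without B+A10 replicate 3, when B4galnt1 was called at a log2 fold change of 0.30), with 0 to 1 members and 0 to 9 other glycan genes. The interaction gave 0 to 1, with 0 of either. Gcnt1, and St3gal4 and St6galnac1 outside their high libraries, rest on few counts, which limits what their fold changes can show.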

Other observations

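The 2 libraries in which a sialyltransferase stood alone also held other genes above the remaining 11 libraries. These genes were chosen after their values were seen, by the log2 gap between that library and the next. Over all libraries, 53 of the 12329 tested genes had a gap of at least 1 log2 unit. In AOS10 replicate 3, where St3gal4 was at 291 CPM, Sprr2a1, a small proline-rich protein of surface epithelium, was at 996 CPM. The other libraries had a median of 196 CPM and a highest value of 383 CPM. Sprr2a2 was at 676 CPM, against a median of 163 CPM and a highest of 264 CPM. The Paneth cell defensins Defa37, Defa32 and Defa36 were also highest there, at 19.6, 83.8 and 22.6 CPM. Their medians in the others were 3.08, 0 and 4.98 CPM, and their highest values 5.27, 30.7 and 8.72 CPM. Pla2g4c was at 40.3 CPM, against a median of 8.97 CPM and a highest of 16.0 CPM. The list of 7 Paneth cell genes, by contrast, summed to 2821 CPM in that library, the lowest of the 12, against 3381 to 7425 CPM in the others. Defensin genes are near-identical copies, so how reads were split among them is uncertain.

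In B+A10 replicate 1, where St6galnac1 was at 84.8 CPM, Cyp1a1, an enzyme induced through the aryl hydrocarbon receptor, was at 109 CPM against a median of 6.66 CPM in the others. Egr1, an immediate early gene, was at 312 CPM against 7.58 CPM, and Phlda1 at 135 CPM against 27.0 CPM. The smooth muscle genes were also highest in that library, at a sum of 3.70 CPM. Each of these values comes from 1 library and has no replicate.

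Of the 10 members, 4 (B3galt5, Fut2, Gcnt3 and Gcnt1) have their coding sequence in 1 exon, as do 15.8% of 21924 protein-coding genes of the GENCODE basic annotation.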
